A study of Mus musculus with 50 samples.

Results

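The wide H3K27me1 regions of wild-type (WT) mouse embryonic stem cells (ESCs) are the 5756 regions of at least 10000 bp among the 184901 regions in the WT H3K27me1 peak list (3.11%). They were chosen by their width alone and held 110.7 Mb, which was 28.3% of the bases in that list and 4.17% of the genome. WT was the line E14 (E14TG2a), grown on gelatin in 2i/LIF medium with serum, and the mutant lines were CRISPR/Cas9 derivatives of it that were picked as clones. *Ezh2* KO cells lack the whole *Ezh2* gene, *Ezh1/2* dKO cells lack both *Ezh1* and *Ezh2*, and the *Ezh2* Y726D line carries a point mutation of EZH2 in cells that also lack *Ezh1*. The paper describes this mutant EZH2 as catalytically inactive. The *Ezh2* R685C line was made in the same *Ezh1* KO background and enters only where its lists are named. Each line and mark was represented by 1 ChIP-seq or ATAC-seq library, so that no spread between replicates was known for any coverage value, whereas RNA-seq had 2 libraries per line except *Ezh2* R685C. Positions are those of the mm9 build.

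Polycomb repressive complex 2 (PRC2) places mono-, di- and trimethylation on lysine 27 of histone H3 through its catalytic subunits EZH1 and EZH2. H3K27me3 marks repressed developmental genes, H3K27me2 is spread over much of the remaining genome, and H3K27me1 is known to accumulate over the bodies of transcribed genes, where H3K36 methylation is also found. A peak list records where reads of 1 library exceeded their own background, and it does not record the absolute amount of a mark.

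Wide regions ran through gene bodies and stopped short of gene starts. The following sequences compare the 150 bases just upstream of a gene with an intron near the middle of the region it holds. *Ep400* encodes a chromatin remodelling ATPase, *Mdn1* an AAA ATPase of ribosome assembly and *Macf1* a linker of actin filaments and microtubules. They hold 3 of the widest regions and have no annotated exon in the upstream window. Sequences are given 5′ to 3′ on the strand of the gene, and capitals mark CG dinucleotides. Each intron window lay in the wide region by choice, and none of the 3 upstream windows lay in that region. The regions of *Ep400* and *Macf1* ended within the genes, at chr5:111177433 and chr4:123193065. These pairs thus do not show where wide regions stop.
*Ep400* upstream, chr5:111199737-111199886, minus strand: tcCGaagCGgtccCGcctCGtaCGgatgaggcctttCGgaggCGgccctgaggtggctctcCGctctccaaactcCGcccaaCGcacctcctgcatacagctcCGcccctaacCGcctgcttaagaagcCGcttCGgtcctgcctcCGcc
*Ep400* intron, chr5:111135413-111135562, minus strand: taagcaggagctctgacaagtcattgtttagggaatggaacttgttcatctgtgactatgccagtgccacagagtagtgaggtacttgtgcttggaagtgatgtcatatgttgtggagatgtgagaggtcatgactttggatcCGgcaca
*Mdn1* upstream, chr4:32743944-32744093, plus strand: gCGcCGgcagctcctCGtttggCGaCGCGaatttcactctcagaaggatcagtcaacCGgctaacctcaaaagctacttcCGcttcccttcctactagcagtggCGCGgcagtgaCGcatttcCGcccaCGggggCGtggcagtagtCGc
*Mdn1* intron, chr4:32796592-32796741, plus strand: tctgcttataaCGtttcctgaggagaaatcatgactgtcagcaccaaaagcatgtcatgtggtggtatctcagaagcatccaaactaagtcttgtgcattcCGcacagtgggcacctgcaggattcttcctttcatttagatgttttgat
*Macf1* upstream, chr4:123361604-123361753, minus strand: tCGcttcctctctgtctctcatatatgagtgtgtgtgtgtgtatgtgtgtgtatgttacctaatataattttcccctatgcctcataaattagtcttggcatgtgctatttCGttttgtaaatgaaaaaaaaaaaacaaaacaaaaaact
*Macf1* intron, chr4:123147147-123147296, minus strand: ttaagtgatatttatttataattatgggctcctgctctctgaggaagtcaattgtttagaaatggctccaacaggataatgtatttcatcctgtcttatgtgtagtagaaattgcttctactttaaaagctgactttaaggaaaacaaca

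The upstream windows of *Ep400* and *Mdn1* each held 15 CG dinucleotides, and their intron windows held 1 and 2. The windows of *Macf1* held 2 and 0. Among the 3845 covered protein-coding genes of 10 kb or more, the upstream window of 150 bases held a median of 12 CG dinucleotides, against 6 in the 9661 other genes of that length, and the median in the middle of the gene was 1 in both sets. A wide region touched 3.69% of the upstream windows of covered genes and 64.5% of their middle windows. Taken whole, the wide regions had a GC content of 43.2% and 9.70 CG dinucleotides per kb, whereas the genome had 41.8% and 8.34 per kb. Narrower WT H3K27me1 regions held 7.83 per kb below 1 kb of width and 9.07 per kb between 5 and 10 kb.

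The median width of the wide regions was 15386 bp, the 90th percentile lay at 32567.5 bp and the widest region measured 169162 bp. Of the 5756 regions, 1810 reached 20 kb, 145 reached 50 kb and 5 reached 100 kb. The peak caller gave them a median −log10 p of 2.47 and a median fold over background of 2.31, against 1.31 and 1.79 in the whole list. The list starts near a −log10 p of 1, so that these are long stretches of moderate enrichment. A strong sub-block was called within 3439 of them (59.7%), and these blocks covered 3.73% of their bases. The width threshold cuts a continuous range. The narrowest members were regions of 10000 bp at *Smad3*, which encodes a TGF-β signal transducer, 10002 bp at *Smagp* and 10002 bp at *Mut*, which encodes methylmalonyl-CoA mutase. The widest non-members were a region at chr14:13667597-13677595 without a protein-coding gene, one of 9998 bp at *Mpzl1* and one of 9994 bp at *Ercc1*, which encodes a DNA repair endonuclease subunit.

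Wide regions were found on every chromosome, at a density that differed between them. Chromosome 5 held 3.07 per Mb and chromosome 17 held 2.95 per Mb, whereas chromosome 8 held 1.02 per Mb and chromosome X 0.366 per Mb. Chromosome Y held 1 region. Not every list holds regions on every chromosome, and comparisons between lines were limited to the 9 chromosomes present in all H3K27me1 and H3K27me2 lists (1, 2, 5, 7, 9, 11, 14, 17 and X), which hold 2952 wide regions.

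In *Ezh2* KO ESCs the wide regions were almost empty of listed H3K27me1, while the rest of the genome was not. The *Ezh2* KO H3K27me1 list covered 18.8% of the shared chromosomes but 0.936% of the bases in wide regions, and 2557 of the 2952 regions (86.6%) had no covered base. Only 47 regions (1.59%, Wilson 95% confidence interval (CI) 1.199 to 2.11) were covered above the genome-wide level of that list. The CI covers the counting of regions only and not the variation between libraries. In *Ezh1/2* dKO, 12.5% of the bases in wide regions were covered, against 10.99% of the shared chromosomes, and 45.3% of the regions (CI 43.5 to 47.1) exceeded that level. In *Ezh2* Y726D the coverage was 16.9% against 12.6%, and 56.1% of the regions (CI 54.3 to 57.9) exceeded it. The median region was covered over 9.55% of its length in *Ezh1/2* dKO and 14.4% in *Ezh2* Y726D. Differences between lines could not be tested without replicate libraries. Chromosome X was almost empty in these lists, which lowered the level of the shared chromosomes. The *Ezh1/2* dKO list covered 0.231% of chromosome X, and the *Ezh2* Y726D list covered 0.237%. Chromosome 11 was also thinly covered by these lists, over 4.33% and 5.08%. Levels without chromosomes X and 11 were not computed. Whether *Ezh1/2* dKO and *Ezh2* Y726D exceed the level of the other chromosomes together was thus not tested.

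The lists of the lines differ in strength as well as in extent, which bears on these values. Regions with a −log10 p of at least 2 covered 6.76% of the shared chromosomes in WT H3K27me1, 0.625% in *Ezh2* KO, 0.0985% in *Ezh2* Y726D and 0.299% in *Ezh1/2* dKO. The lists held 5756, 3029, 41 and 30 regions of at least 10000 bp in the same order. *Ezh1/2* dKO and *Ezh2* Y726D therefore covered the wide regions mostly with short, weak regions. The paper reports from western blots that both lines lost H3K27me1, H3K27me2 and H3K27me3 in bulk, whereas *Ezh2* KO retained bulk H3K27me1. Coverage by the *Ezh1/2* dKO and *Ezh2* Y726D lists thus does not show that H3K27me1 was retained there. The *Ezh2* KO list did hold wide H3K27me1 regions. Of its 1620 wide regions on the shared chromosomes, 2 (0.123%) overlapped a wide region of WT, which were 2 of the 2952 WT regions (0.0678%). The overlap that placement alone would give was not computed for this pair of lists.

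Taken whole, the 4 H3K27me2 lists were each lower over the wide regions than over the genome. Regions with a −log10 p of at least 2 covered 0.493% of the shared chromosomes in the WT list. These values were 0.396% for *Ezh1/2* dKO, 0.449% for *Ezh2* Y726D and 6.98% for *Ezh2* KO. The WT list was thus mostly weak, with a strength near that of *Ezh1/2* dKO, which lacks both enzymes. Limited to such regions, WT covered 0.723% of the bases in wide regions, above its 0.493%. The other lists stayed below their level. The whole WT list covered 11.9% of the bases in wide regions against 12.95% of the shared chromosomes, and 877 regions (29.7%) held none. The region with the median value was covered over 6.93% of its length. In *Ezh2* KO it covered 0.129% against 16.2%, 2887 regions (97.8%) held none and 6 regions (0.203%, CI 0.0932 to 0.443) exceeded the genome-wide level. *Ezh1/2* dKO covered 14.5% of their bases against 22.3%, and *Ezh2* Y726D covered 13.7% against 22.6%. The shares of regions above the genome-wide level of their own list were 36.3% in WT (CI 34.6 to 38.1), 20.7% for *Ezh2* Y726D (CI 19.3 to 22.2) and 21.7% for *Ezh1/2* dKO (CI 20.3 to 23.3). Of 409 wide H3K27me2 regions of WT, 32 (7.82%) overlapped 31 wide H3K27me1 regions of WT (1.05%). Wide H3K27me1 regions fill 4.17% of the genome. The overlap that placement alone would give was not computed, so that these counts show neither separation nor sharing.

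The low coverage in *Ezh2* KO was seen on each chromosome with at least 100 wide regions. The ratio of coverage in wide regions to coverage of the whole chromosome ranged from 0.00538 to 0.161 over 18 chromosomes for *Ezh2* KO H3K27me1 and from 0 to 0.0639 over 19 chromosomes for *Ezh2* KO H3K27me2. For WT H3K27me2 it ranged from 0.174 to 1.13 and was below 1 on 16 of 18 chromosomes. For *Ezh1/2* dKO H3K27me1 the ratio ranged from 0.548 to 1.35 and was below 1 on 9 of 15 chromosomes, and for *Ezh2* Y726D H3K27me1 it ranged from 0.532 to 1.5 and was below 1 on 3 of 8. The chromosomes thus did not share one direction in these last lists. H3K27me2 of *Ezh1/2* dKO and *Ezh2* Y726D gave ratios below 1 on 19 of 19 chromosomes. Chromosome 11 had the lowest ratio in WT H3K27me2 and in each mutant H3K27me1 list. These lists covered less of it than of the other autosomes they hold. The next lowest WT H3K27me2 ratio was 0.545, on chromosome 9.

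Coverage by the *Ezh2* KO lists fell with the width of the WT region. WT H3K27me1 regions below 1 kb were covered over 24.1% of their bases by *Ezh2* KO H3K27me1, those of 2 to 5 kb over 8.23% and those of 5 to 10 kb over 3.33%, before the 0.936% of the wide regions. *Ezh2* KO H3K27me2 went from 11.4% below 1 kb to 0.129%. WT H3K27me2 covered 34.0% of the narrowest regions, 36.4% of those of 1 to 2 kb and 24.6% of those of 5 to 10 kb, which is above its genome-wide 12.95% in each of these classes. The wide regions were the only width class below that level. Among the wide regions themselves, WT H3K27me2 covered 17.7% of the bases at 10 to 15 kb, 9.87% at 20 to 30 kb and 6.92% at 50 kb or more. *Ezh2* Y726D H3K27me1 varied less, from 21.0% in the narrowest class to 17.1% at 5 to 10 kb. It covered 16.9% at 10 to 15 kb and 17.9% at 50 kb or more, and *Ezh1/2* dKO H3K27me1 covered 12.4% and 14.6%, so that these lists did not fall with width among the wide regions. All classes are parts of 1 WT library. The WT H3K27me2 values by width, along genes and at region edges use the whole, mostly weak list.

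**Figure D1:**
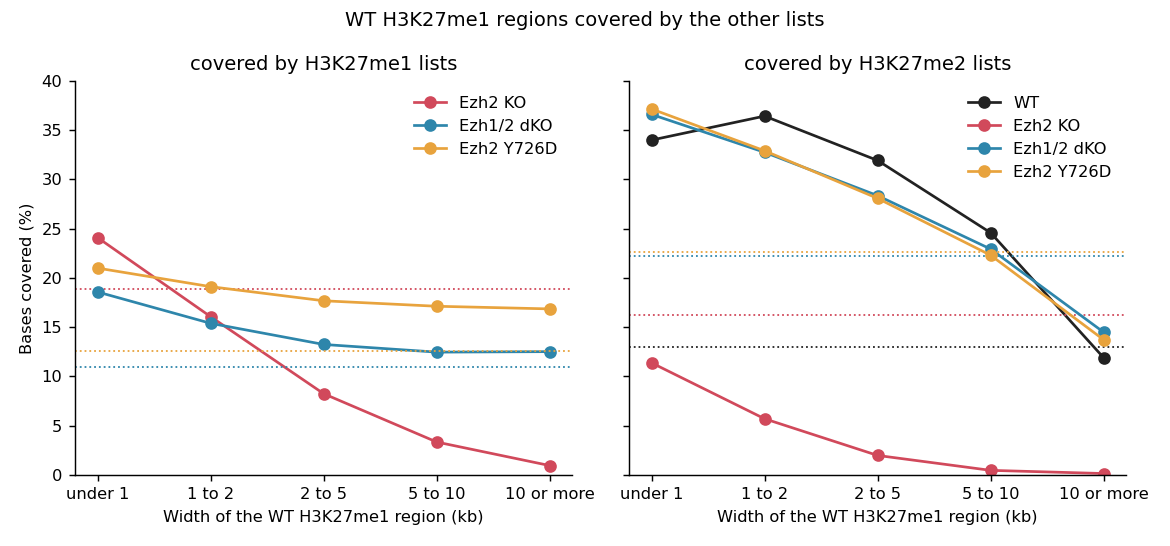
Percent of the bases of WT H3K27me1 regions covered by the H3K27me1 lists (left) and H3K27me2 lists (right) of each line, by the width of the WT region in kb, with 1 library per line and mark on the 9 shared chromosomes; dotted lines give the coverage of the whole chromosomes by the list of the same colour. At 10 kb or more the *Ezh2* KO lists fall to 0.936% and 0.129%, and WT H3K27me2 falls to 11.9%, below its dotted line at 12.95%.

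A few wide regions kept H3K27me1 in *Ezh2* KO. Over all chromosomes in that list, 4879 of 5620 wide regions (86.8%) had no covered base and 9 were covered over at least 50% of their length. These regions are named because of their values and are a description only. The region at *Rtl1*, an imprinted gene derived from a retrotransposon, was covered over 80.5% by *Ezh2* KO H3K27me1 and 48.8% by *Ezh2* KO H3K27me2. The region at *Brd3*, which encodes a BET protein that reads acetylated histones, was covered over 51.9% and 50.8%. A region without a protein-coding gene at chr17:27373942-27401984 was covered over 73.2% and 49.8%. Another such region at chr12:110946440-110987813 was the most covered by *Ezh2* KO H3K27me2, over 56.1%. *Igf2r*, an imprinted gene for the receptor that clears IGF2, held a region with 36.6% of *Ezh2* KO H3K27me2 and 6.47% of *Ezh2* KO H3K27me1.

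The widest region stood apart from the others. It covered 169162 bp of *Dnahc8*, which encodes an axonemal dynein heavy chain, at chr17:30765679-30934840, with a −log10 p of 7.29 and a fold of 3.97, the highest of all wide regions. It was covered over 82.3% by *Ezh1/2* dKO H3K27me1, 87.5% by *Ezh2* Y726D H3K27me1 and 75.2% by WT H3K27me2, but over 17.3% by *Ezh2* KO H3K27me1 and 0% by *Ezh2* KO H3K27me2. It was 1 of 8 wide regions in a stretch that also holds *Btbd9* and *Glo1*, a glyoxalase gene, and *Ezh1/2* dKO H3K27me1 covered between 44.7% and 92.1% of each of these 8. A peak list does not separate more of a mark from more copies of the DNA, and the copy number of this stretch was not measured. Without these 8 regions the pooled coverage of the other 2944 was 0.798% in *Ezh2* KO, 16.5% in *Ezh2* Y726D and 12.1% in *Ezh1/2* dKO for H3K27me1, and 11.5% in WT for H3K27me2.

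The other 9 of the 10 widest regions lay in *Vps13d*, *Ubr4*, *Ep400*, *Mdn1*, *Macf1*, *Ttn*, *Pcnt*, *Bdp1* and *Nup98*, with widths from 110637 bp down to 81003 bp. *Ezh2* KO H3K27me1 covered 0.689% of the region in *Vps13d*, which encodes a lipid transfer protein, and 3.79% of that in *Ttn*, the gene of the giant muscle protein titin. It covered none of the other 7. *Ezh2* KO H3K27me2 covered none of the 9. WT H3K27me2 covered between 0% and 8.20% of each of these regions. The region in *Ep400* was covered over 17.6% by *Ezh1/2* dKO H3K27me1 and 22.1% by *Ezh2* Y726D H3K27me1, and that in *Nup98*, the gene of a nuclear pore protein, over 2.75% and 6.33%.

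Wide regions lay mostly in genes. Annotated protein-coding genes filled 86.7% of their bases, against 51.4% in narrower WT H3K27me1 regions and 37.5% in the genome, and exons filled 12.8%, against 2.90% in the genome. Of the 5756 regions, 4293 (74.6%) touched 1 protein-coding gene, 873 (15.2%) touched 2, 82 (1.42%) touched 3 or 4, and 508 (8.83%) touched none. The whole length was genic in 3067 regions (53.3%). Of the 508 regions without a protein-coding gene, 70 touched another annotated gene and 47 (9.25%) began within 10 kb downstream of a gene end.

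A gene was counted as covered when wide regions held at least 5000 of its bases or 50% of its body. This was the case for 4278 of 22367 protein-coding genes (19.1%), with a median length of 32.9 kb against 11.5 kb for the other genes, and the median covered gene had 64.4% of its body in wide regions. Among covered genes of 10 kb or more, 136 of 3845 (3.54%) had their start inside a wide region and 2474 (64.3%) had their end inside one. In the 1531 covered genes of 20 kb or more on the shared chromosomes, WT H3K27me1 covered 22.0% of the first of 20 bins of the body, 50.8% of the next and 85.1% of the eighteenth, and it declined to 44.7% between 4 and 5 kb after the end. The rule fixes the high level within the body but not the side on which it lies. WT H3K27me2 ran the other way, with 31.6% between 1 and 2 kb upstream of the start, 21.4% in the second bin of the body, 11.7% in the fourteenth and 28.2% between 3 and 4 kb after the end.

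In the mutant lines the same genes had another profile. *Ezh2* KO H3K27me1 covered between 1.47% and 2.71% of each bin of the body of covered genes and 10.5% at 4 to 5 kb upstream. In the 3490 genes of the same length without a wide region, it covered 22.7% of the middle of the body. *Ezh2* KO H3K27me2 covered 0.912% in the middle of covered genes, and 20.2% in the middle of the other genes. *Ezh2* Y726D H3K27me1 covered 23.1% of the last kb before the start of covered genes and 14.4% of the middle. *Ezh1/2* dKO H3K27me1 covered 5.41% of that kb and 9.73% of the middle. In the genes without a wide region these values were 21.6% and 15.9% for *Ezh2* Y726D and 9.41% and 13.5% for *Ezh1/2* dKO. Neither order of the values was thus particular to covered genes.

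**Figure D2:**
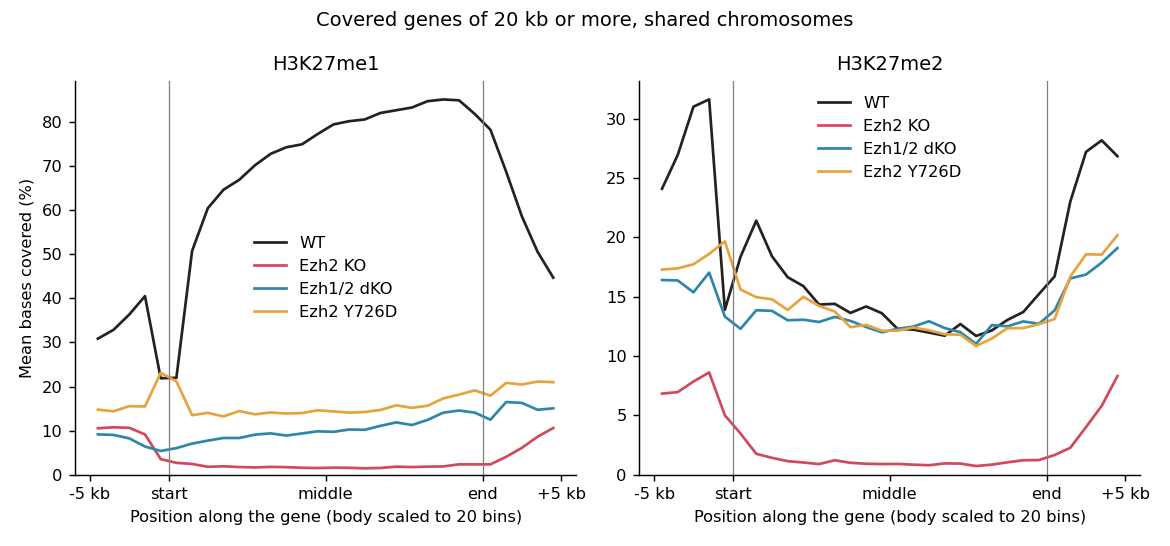
Mean percent of bases covered by H3K27me1 (left) and H3K27me2 (right) lists along the 1531 covered genes of at least 20 kb on the shared chromosomes, with bodies scaled to 20 bins, flanks in 1 kb windows and 1 library per line and mark. WT H3K27me1 climbs from 22.0% at the start to 85.1% towards the end of the body, and the *Ezh2* KO lists stay lowest in both panels within the body.

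Coverage changed across the edges of the wide regions. Windows of 1 kb were counted outward from both edges of the 2952 regions, which gave 5904 windows at each distance. WT H3K27me1 still covered 54.2% of the bases between 4 and 5 kb outside and 45.9% between 19 and 20 kb outside, so that wide regions sat in neighbourhoods with further listed regions. *Ezh2* KO H3K27me1 rose from 0.951% at 4 to 5 kb inside to 2.30% in the first kb outside and 11.2% at 19 to 20 kb outside, which is still below its 18.8% of the shared chromosomes. *Ezh2* KO H3K27me2 rose from 0.113% to 8.65% over the same distance. WT H3K27me2 covered 21.3% at 19 to 20 kb outside, 16.0% in the first kb outside and 21.2% in the first kb inside. It fell to 12.4% at 4 to 5 kb inside.

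**Figure D3:**
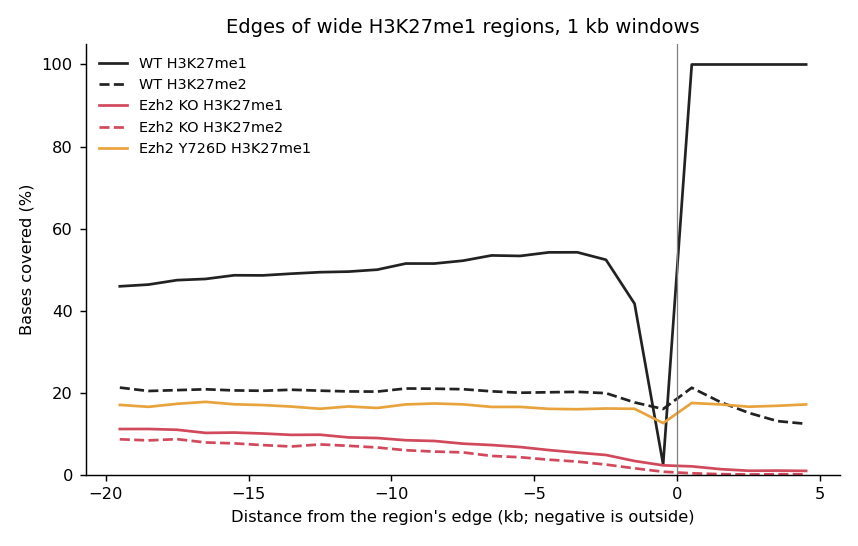
Percent of bases covered in 1 kb windows by distance from the edges of the 2952 wide regions on the shared chromosomes (negative distances lie outside), for 5 lists of 1 library each. WT H3K27me1 is at 100% inside by the choice of the regions, and *Ezh2* KO H3K27me1 falls from 11.2% at 20 kb outside to 0.951% inside.

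Wide regions rarely touched Polycomb sites, as was the case for narrower WT H3K27me1 regions, and held more listed open chromatin than the genome. Of the 5756 regions, 2 (0.0347%) touched a WT SUZ12 peak and 2 (0.0347%) a WT H3K27me3 peak. SUZ12, a core subunit of PRC2, had peaks over 0.235% of the genome, 0.00509% of the bases in wide regions and 0.00181% of those in narrower regions, and for H3K27me3 these values were 0.545%, 0.00191% and 0.00513%. The median distance of wide regions was 198.7 kb to the nearest SUZ12 peak and 130.1 kb to the nearest H3K27me3 peak, which was less than the 324.4 kb and 243.5 kb of narrower regions. Within 5 kb of such peaks lay 1.15% and 1.82% of the wide regions, and 0.551% and 1.15% of the narrower ones. ATAC-seq lists, which record open chromatin, covered 38.5% of their bases in WT, against 34.2% in narrower WT H3K27me1 regions and 23.3% in the genome. The corresponding values were 32.2% for *Ezh2* KO, 36.1% for *Ezh2* Y726D and 37.7% for *Ezh1/2* dKO. H3K27ac peaks, which mark active promoters and enhancers, covered 0.293% of the bases in *Ezh1/2* dKO, 0.749% in *Ezh2* KO, 0.915% in *Ezh2* Y726D and 3.20% in *Ezh2* R685C, and narrower regions held more of it in each of these lines, with 0.763%, 1.54%, 2.69% and 5.44%. A WT list of H3K27ac was not used here.

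Covered genes were expressed in WT ESCs. Expression is given as the normalized read count per kb of exon, averaged over the 2 WT libraries. Of the 4278 covered genes, 4172 were matched in the expression table. Their median was 96.3 per kb, against 8.76 for the other protein-coding genes, and each WT library gave the same picture with medians of 95 and 96.5 for covered genes and 8.25 and 8.74 for the others. In total, 2011 covered genes (48.2%, CI 46.7 to 49.7) were among the most expressed quartile, which starts at 102 per kb, and 67 (1.61%) were in the lowest quartile. Only 9 covered genes (0.216%) were listed at 0 in both WT libraries, against 949 of the others (7.72%).

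The share of covered genes rose with expression until the top. It was 1.22% in the lowest decile of genes, 6.99% in the fourth, 19.2% in the fifth, 53.1% in the ninth and 43.5% in the highest decile. Genes in that last decile were shorter, with a median length of 11.9 kb against 18.9 kb in the ninth. Length and expression both counted. Among genes of 30 to 100 kb, 1.199% of the lowest and 79.4% of the highest quartile of expression were covered, and over 100 kb these shares were 3.20% and 69.5%. Below 10 kb of length, where a region of 10000 bp exceeds the gene, they were 1.65% and 15.7%. The genes are not independent replicates, and the shares describe 1 ChIP-seq library against the mean of 2 RNA-seq libraries.

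**Figure D4:**
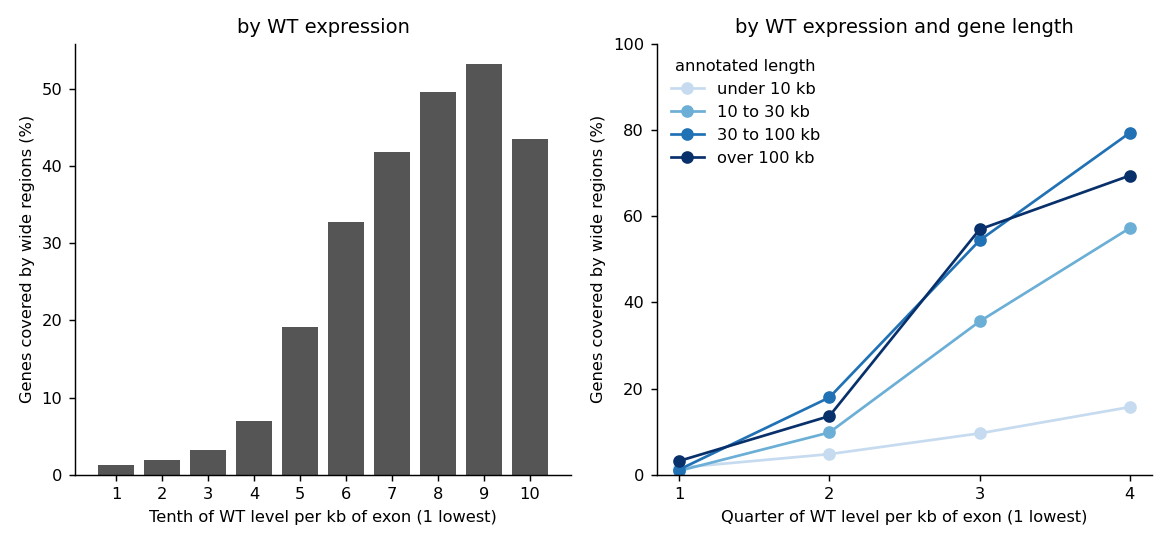
Percent of protein-coding genes covered by wide regions, by decile of the WT level per kb of exon (left, bars from 0) and by quartile of that level in 4 classes of gene length (right). Coverage rises from 1.22% to 53.1% in the ninth decile, and in genes of 30 to 100 kb it reaches 79.4% in the highest quartile.

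The 10 covered genes with the highest WT level per kb of exon included subunits of the respiratory chain and tRNA synthetases. *Cox5a* and *Cox6b1*, subunits of cytochrome c oxidase, had 1304 and 1177 per kb, *Ndufb9*, a subunit of complex I, had 1217, and *Atp5l*, a subunit of ATP synthase, had 1083. *Nars* and *Gars*, tRNA synthetase genes for asparagine and glycine, had 1130 and 1103 per kb. *Usmg5* had 1251, *Gsta4*, a glutathione transferase gene, had 1187 and *2010107E04Rik* had 1130 per kb. The highest value, 2341 per kb for *D430020J02Rik*, rests on an annotated exon length of 0.039 kb. At the low end, *Tmc1*, *Btg3*, *Ccr9*, *Cacna1d* and *Abca17* were listed at 0 per kb in both WT libraries, although wide regions held between 10.1 and 17.2 kb of each. In *Tmc1*, *Ccr9*, *Cacna1d* and *Abca17* this was between 2.31% and 11.7% of the body, and in *Btg3* it was 70.3%.

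The 10 genes with the most bases in wide regions were led by *Fgfr2* with 275 kb and *Gm20388* with 259 kb, whose annotated spans of 3009 kb and 4435 kb run over many neighbouring genes. *Dnahc8* followed with 243 kb and *Gli2*, a transcription factor of Hedgehog signalling, with 193 kb or 87.8% of its body in 6 regions. *Macf1* had 180 kb in 5 regions, *Vps13d* 171 kb in 3 and *Dst*, which encodes a cytoskeletal linker, 160 kb in 5. *Etl4* had 157 kb, *Diap3*, a formin gene, 149 kb in 11 regions and *Birc6*, a ubiquitin ligase gene, 139 kb in 6.

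Groups of genes differed in how many members were covered. The lists were drawn up with earlier results of these data known, so that the counts are a description. They are to be read against the 19.1% of all protein-coding genes and against the higher shares of long, expressed genes. Of the list of cohesin, condensin and mitosis genes 26 of 27 were covered, including *Stag1*, *Nipbl* and *Pds5b* of the cohesin machinery. Of ubiquitin ligases and deubiquitinases 24 of 27 were covered, of nuclear pore genes 15 of 17, of splicing factors 19 of 23, of elongation and H3K36 methylation genes 23 of 31, of chromatin remodellers 18 of 25 and of replication and repair genes 23 of 32. These lists had median lengths between 36.6 and 104 kb. Among all genes of 30 to 100 kb, 54.4% of the third and 79.4% of the highest quartile of expression were covered. Over 100 kb these shares were 57.0% and 69.5%. The lists were not compared with genes matched for length and expression.

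*Atm*, the DNA damage kinase, had 83.1 kb in 5 regions, *Blm*, a helicase gene, had 71.5 kb in 1 region and *Fancd2*, of the Fanconi anaemia pathway, had 63.3 kb. Of the elongation list, *Setd2*, the methyltransferase for H3K36me3, had 65.0 kb in 1 region and *Cdc73*, of the PAF1 complex, had 88.0 kb in 3. *Chd6* had 106 kb, *Pbrm1*, of the PBAF complex, 93.1 kb and *Ino80*, a remodelling ATPase, 82.8 kb. *Trip12*, a ubiquitin ligase gene, had 109 kb in 3 regions, and *Nup210*, of the nuclear pore, had 90.7 kb in 4. *Sf3b1*, the splicing factor, had 35.8 kb, or 84.7% of its body.

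At the other end stood short and silent genes. None of 26 ribosomal protein genes was covered, although their median WT level was 683 per kb, and their median length was 3.91 kb. None of 25 developmental Polycomb targets was covered, with a median WT level of 0.325 per kb and a median length of 7.36 kb. Of 24 long neuronal genes 4 were covered, with a median length of 1135 kb and a WT level of 0.572 per kb over the list. These were *Lrp1b*, *Macrod2*, *Magi2* and *Fhit*, with between 10.3 and 28.4 kb in wide regions, which was at most 1.38% of the body.

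Of 24 pluripotency factors 9 were covered, and these had a median length of 67.9 kb against 6.55 kb for the 15 others. *Nr5a2*, a nuclear receptor gene, had 83.3 kb in wide regions, *Lifr* and *Il6st*, the receptor chains for LIF, had 46.2 and 31.6 kb, *Tet2* and *Tet1*, which oxidize 5-methylcytosine, had 41.9 and 41.3 kb, and *Tcfcp2l1*, a transcription factor of naive ESCs, had 32.9 kb. *Pou5f1*, *Sox2* and *Nanog*, the core factors of pluripotency, had no base in wide regions and levels of 754, 263 and 414 per kb. Of 15 genes for PRC2 subunits and H3K27 enzymes 7 were covered. *Ezh2* had 45.5 kb in 2 regions, whereas *Ezh1* and *Suz12* had none. *Crebbp* and *Ep300*, which encode the H3K27 acetyltransferases CBP and p300, had 86.7 and 62.0 kb, *Jarid2* 56.2 kb, *Kdm6a*, an H3K27 demethylase gene, 43.7 kb and *Aebp2* 27.1 kb.

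RNA-seq allowed the covered genes to be compared between lines. Each mutant line was compared with the same 2 WT libraries, so the 3 comparisons share their controls. RNA was measured in bulk, where fewer cells of a type and less RNA per cell cannot be told apart. The libraries held between 3604123 and 5181553 reads over genes. *Ezh2* itself is a covered gene and had 598 and 546 normalized counts in the WT libraries, 1.05 and 0.968 in *Ezh2* KO, 0.824 and 1.78 in *Ezh1/2* dKO and 422 and 613 in *Ezh2* Y726D. The *Ezh2* KO level rested on 2 reads and was 0.177% of WT (exact 95% CI 0.0214 to 0.641, counting error only), and that of *Ezh1/2* dKO rested on 3 reads and was 0.226% (CI 0.0465 to 0.662). *Ezh1* had 227 and 377 normalized counts in the WT libraries, 372 and 378 in *Ezh2* KO, 14.01 and 20.4 in *Ezh1/2* dKO and 24.1 and 15.7 in *Ezh2* Y726D. The sum of 6 ESC markers lay between 8352 and 10125 in all 8 libraries.

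Few covered genes were called in any line. Calls needed an adjusted p below 0.1 (limma, Benjamini-Hochberg over 13872 genes) together with a log2 fold change of 1 or more in either direction, and 4111 covered genes were tested. Of all genes tested 0.404% were called in *Ezh2* KO, with 0.0937% higher and 0.31% lower, and of the covered genes 1 was higher and 5 were lower (0.146%). In *Ezh1/2* dKO 4.02% of all genes were called, with 3.63% higher and 0.389% lower, and of the covered genes 9 were higher and 18 lower (0.657%). In *Ezh2* Y726D 2.72% of all genes were called, with 1.66% higher and 1.06% lower, and of the covered genes 2 were higher and 36 lower (0.924%). In *Ezh1/2* dKO and *Ezh2* Y726D the shortfall of covered genes lay in the higher calls. Their share of lower calls was near that of all genes tested. *Ezh2*, deleted by design, is among the lower calls of *Ezh2* KO and *Ezh1/2* dKO. The 9030 other protein-coding genes tested gave 481 higher and 33 lower calls in *Ezh1/2* dKO and 223 higher and 102 lower in *Ezh2* Y726D. With quantile normalization in place of the size factors, the covered genes gave 5 higher and 29 lower calls in *Ezh1/2* dKO.

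The median log2 fold change of the covered genes was −0.12 in *Ezh1/2* dKO, −0.02 in *Ezh2* KO and −0.06 in *Ezh2* Y726D, against 0.01, −0.01 and −0.01 over all genes tested. With quantile normalization the median in *Ezh1/2* dKO was −0.03 for both. Covered genes are highly expressed, and the difference from other genes varied with expression. In the highest quartile of expression the median in *Ezh1/2* dKO was −0.17 for 2011 covered genes and −0.16 for 2106 others. In that quartile 0 covered genes were called higher and 7 lower in *Ezh1/2* dKO, and among the others these counts were 7 and 11. In the second quartile, counted from the lowest, the medians were 0.09 for 452 covered genes and 0.40 for 3445 others, a wider gap than over all genes. In the lowest quartile they were 1.00 for 22 covered genes and 1.41 for 990 others. Only these 22 of the 67 covered genes in that quartile were tested. Genes were tested when their mean over all 8 libraries was at least 5. A gene near 0 in WT thus entered only when it was higher in a mutant line, so that the medians of this quartile are partly set by the filter. The standard error of a log2 fold change had a median of 0.18 in covered genes and 0.28 over all genes, so that covered genes were measured more precisely.

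Among covered genes, the one that rose most in *Ezh2* KO and *Ezh1/2* dKO was *Hmcn1*, which encodes the extracellular matrix protein hemicentin. It had 14.7 and 10.6 normalized counts in the WT libraries, 109 and 186 in *Ezh2* KO, 209 and 159 in *Ezh1/2* dKO and 15.2 and 11.2 in *Ezh2* Y726D. All 4 libraries of the first pair of mutants lay above WT, and those of *Ezh2* Y726D overlapped it. The log2 fold change on the log2(normalized count + 1) scale was 3.41 ± 0.39 (SE, n = 2 per line) in *Ezh2* KO, with an adjusted p of 0.0109 by limma, and 3.76 ± 0.39 in *Ezh1/2* dKO, with an adjusted p of 0.00585 by limma. Wide regions held 11.6 kb of it, or 2.70% of its body.

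*Plagl1*, an imprinted gene for a zinc finger protein, had 227 and 187 normalized counts in the WT libraries, 23.0 and 33.9 in *Ezh2* KO, 88.2 and 69.3 in *Ezh1/2* dKO and 6.24 and 11.2 in *Ezh2* Y726D. All mutant libraries lay below both WT libraries. The log2 fold change was −2.84 ± 0.39 in *Ezh2* KO (limma adjusted p = 0.0223), −1.39 ± 0.39 in *Ezh1/2* dKO (limma adjusted p = 0.102, not called) and −4.46 ± 0.39 in *Ezh2* Y726D (limma adjusted p = 0.00197). *Arhgef26*, a guanine exchange factor gene, had 252 and 257 in the WT libraries and 37.6 and 45.5 in *Ezh2* KO, whereas the *Ezh1/2* dKO libraries had 217 and 307, on both sides of WT. Its log2 fold change in *Ezh2* KO was −2.59 ± 0.24 (limma adjusted p = 0.00465).

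*Def6*, a guanine exchange factor gene of lymphocytes, was called lower in *Ezh2* KO and *Ezh1/2* dKO. It had 141 and 165 in the WT libraries, 47.0 and 28.1 in *Ezh2* KO, 45.3 and 27.5 in *Ezh1/2* dKO and 129 and 95.1 in *Ezh2* Y726D. The log2 fold changes were −2.04 ± 0.37 (limma adjusted p = 0.0860) and −2.08 ± 0.37 (limma adjusted p = 0.0286), and the calls were kept in 6 and 14 of 16 alternative settings. *Dlgap3*, a gene of the postsynaptic density, had 261 and 285 in WT and 69.2 and 40.8 in *Ezh1/2* dKO, and it fell by 2.34 on the log2 scale there (SE 0.47, limma adjusted p = 0.0390). *Ezh2* KO had 160 and 53.2 and *Ezh2* Y726D 131 and 99.6, which lay below WT without passing the test.

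*Naalad2*, a glutamate carboxypeptidase gene, had 6.67 and 6.74 in WT and 39.6 and 45.3 in *Ezh1/2* dKO, a log2 fold change of 2.49 ± 0.59 (limma adjusted p = 0.0633). *Bmp8b*, a BMP ligand gene, had 12.01 and 10.6 in WT, 56.1 and 45.3 in *Ezh1/2* dKO and 33.9 and 90.6 in *Ezh2* Y726D. Its log2 fold changes were 2.07 ± 0.50 in *Ezh1/2* dKO (limma adjusted p = 0.0682) and 2.20 ± 0.50 in *Ezh2* Y726D (limma adjusted p = 0.0695). These *Bmp8b* calls were kept in 8 and 7 of 16 alternative settings, and the *Naalad2* call in 10 of 15. Both genes were weakly expressed in WT, at 1.41 and 2.91 per kb of exon. *Dnmt3l*, the cofactor of the de novo DNA methyltransferases, was abundant in WT with 942 and 686 and rose to 1667 and 1703 in *Ezh2* Y726D, by 1.07 ± 0.23 (limma adjusted p = 0.0614), a call kept in 11 of 16 settings.

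Of the genes that fell in *Ezh2* Y726D, *Slc7a11*, the cystine transporter gene, had 328 and 291 in WT, 49.0 and 5.59 in *Ezh2* Y726D and between 388 and 464 in the libraries of *Ezh2* KO and *Ezh1/2* dKO. The log2 fold change in *Ezh2* Y726D was −4.09 ± 0.70 (limma adjusted p = 0.0324), and its 2 libraries were far from each other. *Cyp2b23*, a cytochrome P450 gene, had 148 and 56.8 in WT and 8.02 and 4.48 in *Ezh2* Y726D, a log2 fold change of −3.72 ± 0.45 (limma adjusted p = 0.0102). *Cyp2b23* has near-identical relatives, and reads shared with them could be split in counting. *Ttn*, which holds one of the 10 widest regions, was called lower in *Ezh1/2* dKO with a log2 fold change of −1.59 ± 0.41 (limma adjusted p = 0.0795), from 554 and 1165 in WT to 382 and 186. This *Ttn* call was kept in 8 of 16 alternative settings, and *Ezh2* KO with 307 and 338 and *Ezh2* Y726D with 406 and 252 also lay below both WT libraries without a call.

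**Figure D5:**
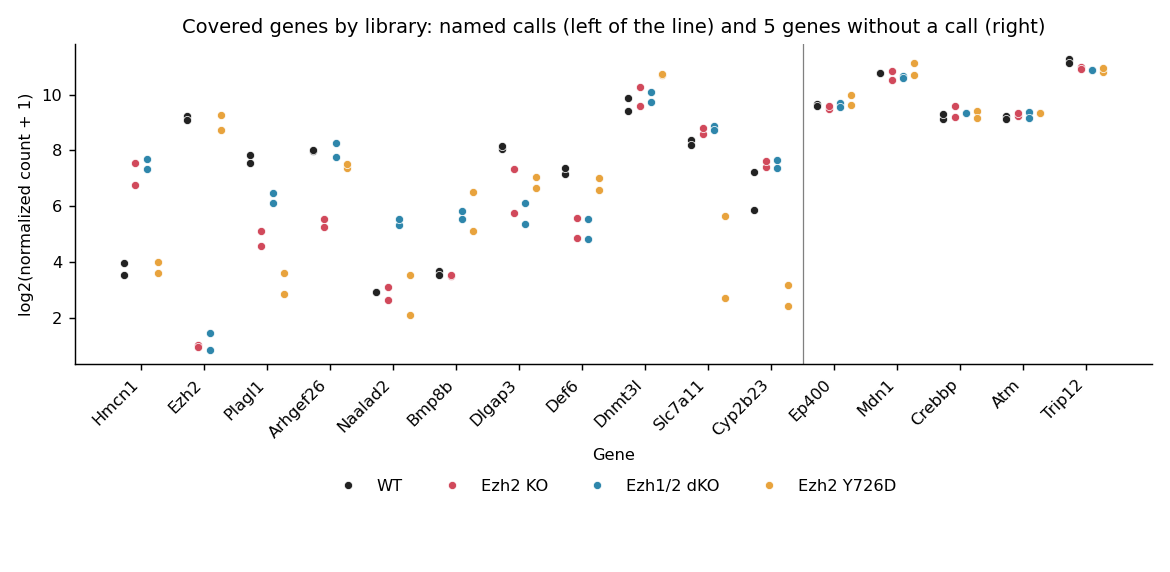
log2 of the normalized count plus 1 in each of the 8 RNA-seq libraries (2 per line) for 11 called covered genes, left of the line, and 5 covered genes without a call, right of it. *Ezh2* drops to about 1 count in *Ezh2* KO and *Ezh1/2* dKO, *Hmcn1* rises in the same lines, *Slc7a11* and *Cyp2b23* are lower in *Ezh2* Y726D, and the 5 genes on the right stay between 554 and 2503 counts.

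Few covered members of the gene lists were called. Except for *Ezh2* in *Ezh2* KO and *Ezh1/2* dKO, none of the covered members tested was called in any line by limma, which with 2 libraries per line does not show that their levels were the same. *Magi2* had a log2 fold change of 1.73 ± 0.94 in *Ezh1/2* dKO, *Lrp1b* of −1.68 ± 0.70 in *Ezh2* Y726D and *Aebp2* of 0.77 ± 0.23 in *Ezh2* Y726D, all without a call. *Ep400* had 819 and 771 in the WT libraries, 709 and 778 in *Ezh2* KO, 822 and 747 in *Ezh1/2* dKO and 784 and 1001 in *Ezh2* Y726D. *Crebbp* had 554 and 637 in WT and between 577 and 762 in the 6 mutant libraries. *Trip12* had 2503 and 2224 in WT and between 1813 and 2019 in the mutants, and its log2 fold changes of −0.25, −0.33 and −0.33 (SE 0.11) did not pass the test. The median log2 fold change over the covered members of a list in *Ezh1/2* dKO ranged from −0.37 for PRC2 subunits and H3K27 enzymes to 0.39 for the 3 long neuronal genes tested, and for the splicing factors it was −0.28.

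Markers of other cell types moved between the lines as well. The summed count of 6 primitive endoderm markers was between 17.3 and 21.2 in WT, 9.41 and 27.1 in *Ezh2* KO, 132 and 156 in *Ezh1/2* dKO and 44.7 and 60.6 in *Ezh2* Y726D. That of 5 trophectoderm markers was between 221 and 237 in WT, 347 and 411, 526 and 670, and 530 and 1046 in the same order. The 3 *Zscan4* genes measured as markers of the 2-cell-like state summed to 294 and 651 in the WT libraries, 11.5 and 14.5 in *Ezh2* KO, 588 and 857 in *Ezh1/2* dKO and 55.3 and 148 in *Ezh2* Y726D. Of 5 fibroblast markers, *Fn1* made up nearly all counts in each line and lay between 3315 and 5380 in the 8 libraries. *Thy1* had 10.7 and 4.81 in WT, 15.7 and 10.6 in *Ezh2* KO, 88.2 and 101 in *Ezh1/2* dKO and 84.7 and 76.1 in *Ezh2* Y726D, so that all libraries of the last 2 lines lay above WT. *Col1a1* and *Col1a2* were at most 1.33 in WT and at most 11.5 in any library, and *Lum* was at 0 in both WT libraries and at most 4.95 elsewhere. Whether cells of these types were present, and their part in the calls of covered genes, was not tested.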

How the data were processed

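ChIP-seq, ATAC-seq and RNA-seq of 34 of the 50 samples were used. The members, gene lists and tests were chosen with earlier results of these data known. For ChIP-seq and ATAC-seq, Bowtie alignment to mm9, duplicate removal by Picard and MACS2 peak calling were done by the authors. The deposited broad lists give each region's −log10 p and its fold over background, down to a p near 0.1. The SUZ12, H3K27me3 and H3K27ac lists start at a −log10 p of 10, and the ATAC-seq lists near 1. The reads behind each list, and thus the depth, are unknown. For RNA-seq the authors counted reads per gene with HTSeq-count and divided them by DESeq2 size factors. The deposited values are thus normalized counts, a signal for each gene, from which whole reads were recovered for all values, and the table holds no raw counts, so limma was the main test.

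Coverage is the percent of bases shared with a list, computed in Python 3.11.15. Genes come from the GENCODE annotation of mm9 (NCBIM37). Of 18055 genes in the table, 16570 matched by symbol, 857 by synonym and 628 did not. Sequences were read from the mm9 genome with pysam 0.24.0. RNA-seq was tested with limma 3.58.1 in R 4.3.3 on log2(normalized count + 1), with a trend, all 8 libraries and a mean count of at least 5. edgeR 4.0.16 and DESeq2 1.42.0 on the recovered reads were alternatives, with others for pseudocount, filter, scaling, replicate block, left-out libraries, list strength, width and the definition of a covered gene. The scripts were tested on simulated data. Libraries of a line correlated across genes with r between 0.953 and 0.978. The labels number them without naming separate cultures, so p-values measure the spread between these libraries.

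Genes were named by rule: those of the 10 widest regions, the 10 with the most bases in wide regions, the 10 highest and 5 lowest covered genes in WT, the 3 called covered genes with the largest rise and fall per line with both libraries beyond WT, up to 6 covered members per list, and those beside the width threshold. *Pou5f1*, *Sox2*, *Nanog*, *Ezh1*, *Suz12* and the regions kept in *Ezh2* KO were named after their values were seen.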

Additional observations from a re-analysis of the deposited data

Results flagged for a closer look

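H3K27me3 peaks of mutant lines touched more of the wide H3K27me1 regions than those of WT did. Of the 5756 wide regions, WT H3K27me3 peaks touched 0.0347%. *Ezh2* KO peaks touched 2.68% (154 regions, Wilson 95% CI 2.29 to 3.12), with 247 of the 8956 peaks of that list lying in wide regions. *Ezh2* Y726D peaks touched 6.88% (396 regions, CI 6.25 to 7.56), with 678 of 3862 peaks, and *Ezh2* R685C peaks touched 1.32% (76 regions, CI 1.06 to 1.65), with 121 of 22245 peaks. They covered 0.139%, 0.438% and 0.0595% of the bases in wide regions, 0.172%, 0.510% and 0.141% in narrower WT H3K27me1 regions, and 0.528%, 0.0763% and 0.746% of the genome. Wide regions thus held less than the genome-wide share of the *Ezh2* KO and *Ezh2* R685C lists and 5.74 times that of the *Ezh2* Y726D list. The *Ezh1/2* dKO list, with 53 peaks, touched 5 wide regions (0.0869%) and covered 0.0120% of their bases against 0.00107% of the genome. Each list is 1 library, the intervals cover counting error only, and no cause was tested.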

How the results depend on the processing

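For each of the 7 lists the share of wide regions covered above the genome-wide level of the list was recomputed. With widths of at least 15000 bp it was 0.576% in *Ezh2* KO H3K27me1, 26.7% in WT H3K27me2, 15.1% in *Ezh1/2* dKO H3K27me2 and 12.3% in *Ezh2* Y726D H3K27me2. With every list limited to as many bases as the shortest it was 1.05% in *Ezh2* KO H3K27me1, 52.6% in *Ezh2* Y726D H3K27me1, 33.3% in WT H3K27me2, 14.7% in *Ezh1/2* dKO H3K27me2 and 13.9% in *Ezh2* Y726D H3K27me2. At a −log10 p of at least 2 it was 0.576% in *Ezh2* KO H3K27me1, 10.3% in *Ezh1/2* dKO H3K27me1, 4.404% in *Ezh2* Y726D H3K27me1, 5.66% in WT H3K27me2, 4.78% in *Ezh1/2* dKO H3K27me2 and 5.28% in *Ezh2* Y726D H3K27me2. With strong sub-blocks alone it was 0% in *Ezh2* KO H3K27me1 and *Ezh1/2* dKO H3K27me2, 0.169% in WT H3K27me2 and 0.0339% in the 4 other lists. Without chromosome 2 it was 58.0% in *Ezh2* Y726D H3K27me1, 23.5% in *Ezh1/2* dKO H3K27me2 and 22.4% in *Ezh2* Y726D H3K27me2. The cause of these moves was not tested. The share of covered genes in the highest quartile of WT expression was 58.0% without division by length, 45.7% when 1 bp made a gene covered, 60.6% when 80% of the body did, and 47.9% to 48.3% without either WT library.

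With 80% of the body, limma called 7 covered genes in *Ezh2* Y726D, 4 in *Ezh1/2* dKO and 0 in *Ezh2* KO, and with widths of at least 15000 bp it called 19, 14 and 3, with fewer genes tested in both. DESeq2 called 11 in *Ezh2* KO. Without 1 library the calls ranged from 2 to 17 in *Ezh2* KO (17 without WT replicate 2), from 1 to 33 in *Ezh1/2* dKO (1 without either of its own replicates) and from 20 to 88 in *Ezh2* Y726D (88 without its replicate 1, 20 without either *Ezh1/2* dKO replicate). A lone library was then assumed to vary like the other lines. With the replicate block, 4, 25 and 32 covered genes were called in *Ezh2* KO, the double knockout and *Ezh2* Y726D. Deviations of same-numbered libraries correlated between −0.41 and 0.29, so the numbers were not taken as pairs. None of the 71 calls changed direction in any alternative, and 18 were kept in each, among them *Arhgef26* in *Ezh2* KO and *Plagl1*, *Slc7a11* and *Cyp2b23* in *Ezh2* Y726D.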
